A study of Arabidopsis thaliana with 48 samples.

Results

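The miRNAs bound by ARGONAUTE1 (AGO1) in closed flower buds of Arabidopsis thaliana were compared between the mutant atprmt5-6 and Col0 wild type. atprmt5-6 is 1 mutant allele of PRMT5, a methyltransferase that places symmetric methyl marks on arginines. The plants were grown on soil in long days and were not treated. An anti-AGO1 immunoprecipitate (AGO1-IP) of bud extract, and a fraction of the extract itself (total small RNA), were sequenced from wild type, atprmt5-6 and a further allele, atprmt5-2, in 2 libraries each. The members are all 428 annotated miRNAs of the deposited 21 nt tables, read in 4 AGO1-IP libraries: replicates 1 and 3 of wild type and of atprmt5-6. Of these 428 miRNAs, 272 had at least 1 read in those libraries, 128 passed a filter on low values over all 12 libraries and were tested, and 300 did not pass. Among the 128 were miR165a-5p and miR166b-5p, which had no read in the 4 libraries. The 128 hold 97 distinct mature sequences, since several loci give the same miRNA.

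In plants, DICER-LIKE1 cuts a miRNA duplex from a hairpin precursor, and AGO1 keeps the guide strand while the passenger strand is discarded. AGO1 prefers guides that begin with U, and a loaded guide directs it to cut or repress transcripts of matching sequence. Flower buds carry many such guides, among them regulators of organ polarity, stamen and pollen development and hormone signalling. Arginine methylation of AGO1 is named in the title of the study, and its design asked how prmt5 mutations bear on the loading of small RNAs.

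The mature sequences below are those on which the results turn, read 5′ to 3′ from the RefSeq annotation of TAIR10.1, with the seed, bases 2 to 8, in capitals. Among miRNAs with an unadjusted p under 0.05, the first 7 lines belong to those with the largest positive differences in atprmt5-6 and the next 4 to those with the largest negative ones, and the last 3 belong to guides described for their abundance or for how they differ between fractions.
miR843: uUUAGGUCgagcuucauugga
miR5637: aAUGCGCAacucuauauuucc
miR825: uUCUCAAGaaggugcaugaac
miR1886.1: uGAGAGAAgugagaugaaauc
miR5024-3p: cCGUAUCUuggccuugucauu
miR395a: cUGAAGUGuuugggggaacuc
miR395b: cUGAAGUGuuuggggggacuc
miR858a: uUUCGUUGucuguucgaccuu
miR858b: uUCGUUGUcuguucgaccuug
miR867: uUGAACAUgguuuauuaggaa
miR8183: uUUAGUUGacggaauuguggc
miR166a-3p: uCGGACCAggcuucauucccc
miR165a-3p: uCGGACCAggcuucauccccc
miR390a-5p: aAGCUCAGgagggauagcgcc
miR395a and miR395b share their seed and differ by A17G, counted from 1 at the 5′ end of miR395a. miR165a-3p and miR166a-3p also share a seed and differ by C17U, counted in miR165a-3p. miR858b begins 1 base further along than miR858a: the last 20 bases of miR858a are the first 20 of miR858b, so their seeds are shifted by 1 base. The sequence of miR166a-3p is encoded at 7 loci, that of miR165a-3p at 2 and those of miR395a and miR395b at 3 each, and the deposited values divide the reads of such a sequence among its loci.

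The 4 AGO1-IP libraries held 6448107 to 8166912 reads of 21 nt, so that 1 read was worth 0.122 to 0.155 RPM, the deposited read unit scaled to the 21 nt reads of a library, and they listed 223 to 241 miRNAs each. Their miRNA reads differed between replicates by more than sampling noise, with a chi-square per degree of freedom of 67.4 in wild type and 279 in atprmt5-6. The median absolute log2 difference between replicates was 0.18 in wild type and 0.22 in atprmt5-6, and 1 and 7 of the 128 miRNAs differed by more than 1. The total libraries held 571191 to 1397552 reads. The tables give miRNAs only, so the PRMT5 transcript could not be read as a check of the genotype. In buds, fewer cells of a type and less of a miRNA per cell cannot be told apart.

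Annotated miRNAs made up 74.8% and 74.6% of the 21 nt reads in the wild-type AGO1-IP libraries and 73.4% and 72.0% in those of atprmt5-6. Both mutant libraries lay below both wild-type libraries, by 2.00 percentage points between means of 74.7% ± 0.158 and 72.7% ± 0.992 (SD, n = 2). The exact two-sided permutation p was 0.3333, the smallest that 2 libraries against 2 allow.

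A single miRNA passed the test in the AGO1-bound pool of atprmt5-6. miR843, encoded at chr3:17742147-17742167 on the plus strand inside the MIR843 gene (AT3G48057), stood at 3.28 and 6.19 RPM in wild type and at 172.4 and 100 RPM in atprmt5-6. These values are 22 and 47 reads in wild type and 1408 and 645 reads in the mutant. Both mutant libraries lay far above both wild-type libraries, and the mean was 28.8 times higher. On the log2 scale miR843 rose by 4.58 (SE 0.71, limma adjusted p = 0.00982) and moved from rank 101 to rank 47 of 128 in AGO1-bound abundance.

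By that test 1 of 128 miRNAs was higher (0.781%) and 0 were lower (0%). At an unadjusted p under 0.05, 11 were higher (8.59%) and 12 lower (9.38%). edgeR on the reads recovered from the RPM called 4 higher (3.12%) and 2 lower (1.56%), or 5 (3.91%) and 0 (0%) with TMM scaling. DESeq2 called 3 higher (2.34%) and 2 lower (1.56%). Both mutant libraries lay above both wild-type libraries for 23 miRNAs (18%) and below them for 49 (38.3%), and the groups overlapped for 56. For 9 of the 128, namely miR843, miR5637, miR5024-3p and the 6 miR395 loci, the mean over the 4 wild-type libraries was under 5 RPM, so they passed the filter only through the mutants. All 9 are among the 11 that were higher at an unadjusted p under 0.05. The filter worked the other way as well. For miR8183, miR829-3p.1, miR844-3p and miR859 the mean over the mutant libraries was under 5 RPM, so they passed only through wild type. Each lay below wild type in both atprmt5-6 AGO1-IP libraries. Counts and medians over the miRNAs tested therefore include members that had to be higher in a mutant and others that had to be lower. The median log2 fold change over the 128 was -0.14. The call of miR843 was lost without wild type replicate 1 (log2 fold change 4.20, adjusted p = 0.118) or atprmt5-6 replicate 1 (4.19, adjusted p = 0.125), and in a fit of the 4 libraries alone (adjusted p = 0.0647), all by limma. It was also lost with no filter on low values (adjusted p = 0.0562).

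**Figure D1:**
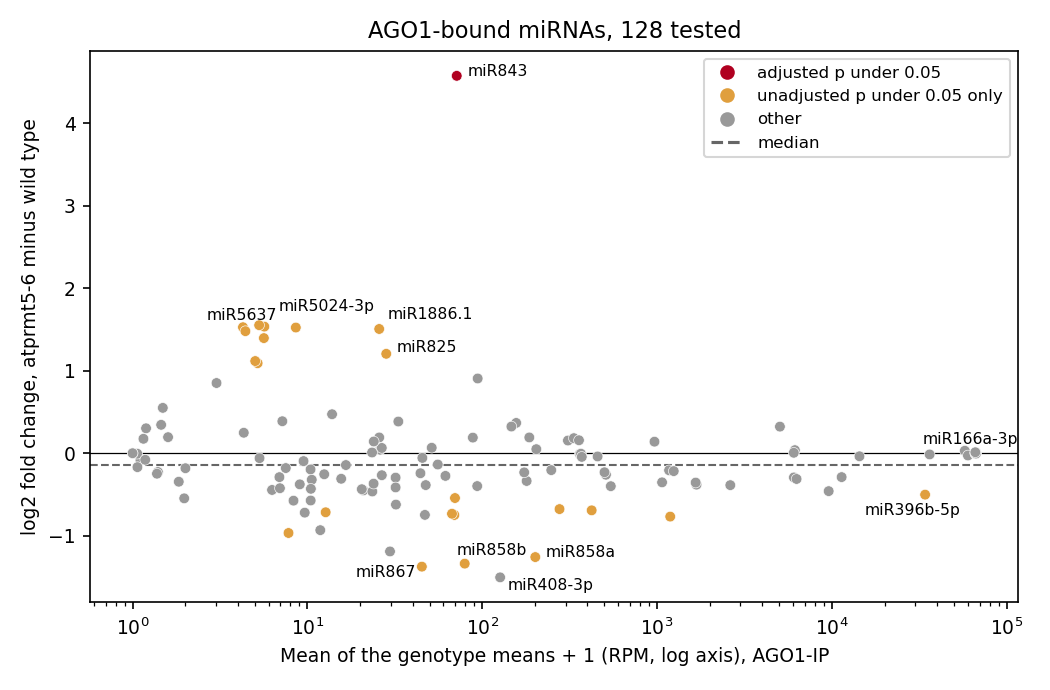
Mean AGO1-bound abundance of both genotypes (RPM + 1, log axis) against the log2 fold change of atprmt5-6 over wild type, 1 point for each of the 128 miRNAs tested, coloured by the limma test, with the median as a dashed line. miR843 stands at 4.58, while the others lie between -1.505 and 1.55 around a median of -0.14.

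Outside the conserved families 37 miRNAs were tested, with a median log2 fold change of -0.25. Of these, 9 lay above wild type in both mutant libraries and 18 below it, against 18% and 38.3% of all miRNAs tested. At an unadjusted p under 0.05, 3 were lower and 5 higher, miR843 among the 5. The other 4 of the higher ones did not pass the test. miR825 was at 17.9 and 14.4 RPM in wild type and 40.4 and 36.3 RPM in atprmt5-6 (log2 fold change 1.21, SE 0.28, limma adjusted p = 0.0531). miR1886.1 was at 11.9 and 12.8 RPM in wild type and 33.3 and 40.9 RPM in atprmt5-6 (1.51, SE 0.42, limma adjusted p = 0.105). The genotypes did not overlap for either. edgeR with TMM scaling called both, at adjusted p = 0.0206 each, and DESeq2 did so too, at adjusted p = 0.00240 each. miR1886.1 shares its seed with miR5640 and with no other annotated miRNA.

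miR5024-3p, which begins with C, was at 3.43 and 3.42 RPM (23 and 26 reads) in wild type and at 98 and 74 reads in atprmt5-6, the latter 11.5 RPM (log2 fold change 1.52, SE 0.44, limma adjusted p = 0.107). miR5637, which begins with A, was at 1.79 and 0.921 RPM in wild type and 6.00 and 4.96 RPM in atprmt5-6 (1.48, SE 0.32, limma adjusted p = 0.0531). Both were rare: the wild-type values of miR5637 are 12 and 7 reads. edgeR called both, miR5024-3p at adjusted p = 0.0458 and miR5637 at 0.0336 on the authors' scale, and at 0.0206 each with TMM scaling. With identical sequences summed before the fit, so that 98 sequences were tested, miR5637 (adjusted p = 0.0176) and miR825 (adjusted p = 0.0475) passed with limma beside miR843 (adjusted p = 0.0105), 3 higher in all (3.06%) and 1 lower (1.02%), miR858b.

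**Figure D2:**
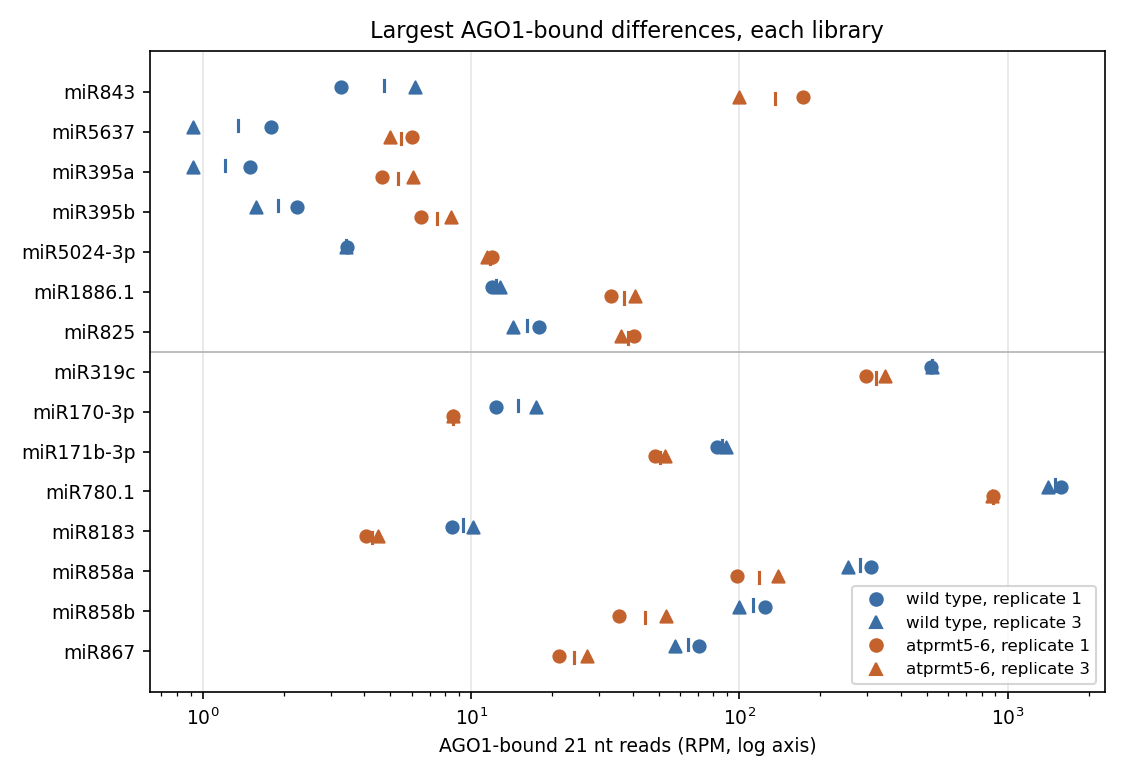
AGO1-bound RPM (log axis) of the miRNAs with the largest differences among those with an unadjusted p under 0.05, 1 point per library (replicates 1 and 3), with bars at the mean of each genotype. The libraries of the genotypes do not overlap for any miRNA drawn, and the widest gap is that of miR843, from 6.19 to 100 RPM. The miRNAs were chosen for their differences in these same libraries. Over all 128 tested, the mutant lay above without overlap for 18% and below for 38.3%.

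The miR858 guides, which target MYB regulators of flavonol synthesis, were the conserved guides furthest below wild type among those with an unadjusted p under 0.05. miR858b was at 125 and 99.9 RPM in wild type and 35.6 and 53.2 RPM in atprmt5-6 (log2 fold change -1.34, SE 0.31, limma adjusted p = 0.0531). miR858a was at 309 and 255 RPM in wild type and 98.0 and 139 RPM in atprmt5-6 (-1.26, SE 0.35, limma adjusted p = 0.105). The mutant libraries lay below both wild-type libraries for each. DESeq2 called both (adjusted p = 0.0143 for miR858b and 0.0424 for miR858a), edgeR at the authors' scale called miR858b (adjusted p = 0.0491), and edgeR with TMM scaling called neither. The 2 sequences overlap by 20 bases and lie at different loci of chromosome 1, so reads that were trimmed or extended by a base at an end could not be told apart here.

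miR867 was at 70.6 and 57.7 RPM in wild type and 21.3 and 27.0 RPM in atprmt5-6 (log2 fold change -1.38, SE 0.42, limma adjusted p = 0.112). miR8183 was at 8.51 and 10.14 RPM in wild type and 4.04 and 4.50 RPM in atprmt5-6 (-0.97, SE 0.29, limma adjusted p = 0.112). Neither passed by limma, although the genotypes did not overlap for either, and edgeR at the authors' scale called miR8183 (-1.12, adjusted p = 0.0491). In every mutant library miR8183 was under 5 RPM, so it passed the filter only through wild type, where it was higher. miR780.1 was at 1584 and 1413 RPM in wild type and 881 and 875 RPM in atprmt5-6 (-0.77, limma adjusted p = 0.197). miR780.2, from the same precursor and named after its values were seen, stood at -0.46 (limma adjusted p = 0.392).

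Guides of meristem and organ patterning made up most of the AGO1-bound pool. The miR165 and miR166 guides, which keep class III HD-ZIP transcripts out of the lower side of organs, took 58.1% and 58.2% of all 21 nt reads in wild type and 59.4% and 57.1% in atprmt5-6. The mutant libraries enclosed the wild-type ones, with means of 58.1% ± 0.116 and 58.3% ± 1.60 (SD, n = 2). miR165a-3p stood at a log2 fold change of 0.03 in AGO1-IP, while in total small RNA it rose by 1.02 (limma adjusted p = 0.0234). The difference between those 2 fold changes was -0.99 (SE 0.38, limma adjusted p = 0.247) and did not pass, while with libraries scaled to their annotated miRNA reads it was called at -0.88 (limma adjusted p = 0.0306).

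miR396 restrains growth-regulating factors, and miR396b-5p was the third most abundant sequence in wild-type AGO1-IP. It was at 40415 and 39481 RPM in wild type and 25702 and 30944 RPM in atprmt5-6 (log2 fold change -0.50, SE 0.19, limma adjusted p = 0.197). Both mutant libraries lay below wild type, and the 2 miR396 guides together went from 4.11% ± 0.0661 to 2.93% ± 0.389 of 21 nt reads (SD, n = 2, exact permutation p = 0.3333, the smallest possible). miR171b-3p, a guide of GRAS regulators, was at 82.6 and 89.1 RPM in wild type and 48.5 and 52.9 RPM in atprmt5-6 (-0.75, SE 0.30, limma adjusted p = 0.225). The related miR170-3p stood at -0.72 (limma adjusted p = 0.206), and miR164a, a guide of NAC boundary factors, at -0.57 (limma adjusted p = 0.770). Of the 17 members of this list that were tested, 0 passed in either direction, 8 lay below wild type in both mutant libraries, against 38.3% of all miRNAs tested, and 9 overlapped. The 9 are the miR165 and miR166 loci, which hold 2 sequences and set the list median of -0.03, against -0.14 over all 128.

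In the list of flower and pollen regulators the abundant and the rare members of a family differed in value. miR159a and miR159b-3p, guides of GAMYB-type transcripts that act in anthers, stood at log2 fold changes of -0.04 and -0.01, values that turned positive under DESeq2, TMM and centring on the median miRNA. miR159c, which has the same seed as miR159a, was at 352 and 327 RPM in wild type and 208 and 216 RPM in atprmt5-6 (-0.68, SE 0.30, limma adjusted p = 0.271). miR319a, a guide of TCP transcripts, stood at 0.04, while miR319c, which differs from it by U20C counted in miR319c, was at 518 and 523 RPM in wild type and 296 and 349 RPM in atprmt5-6 (-0.69, SE 0.26, limma adjusted p = 0.197). Thus both rarer members were below wild type in both mutant libraries and the abundant ones overlapped, but the difference between members was not tested. miR845a, which acts on retrotransposons in pollen, was at 82.3 and 81.3 RPM in wild type and 53.9 and 57.8 RPM in atprmt5-6 (-0.54, SE 0.24, limma adjusted p = 0.271). Of the 8 tested members 0 passed, 4 lay below wild type, against 38.3% of all miRNAs tested, and the list median was -0.29.

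**Figure D3:**
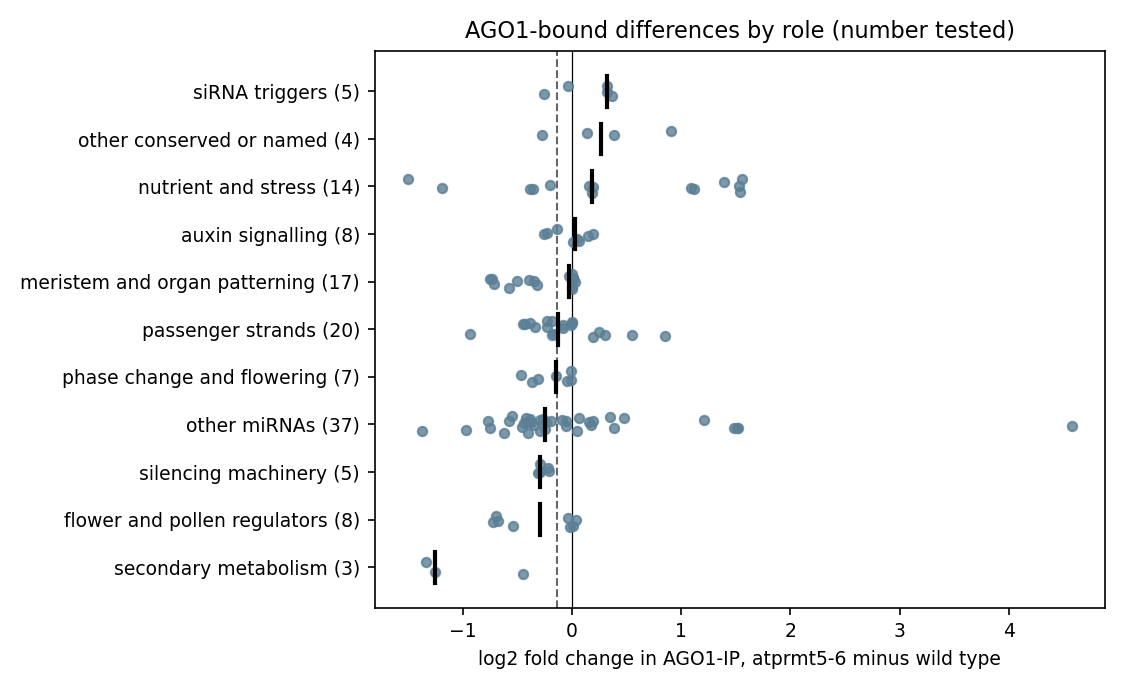
Log2 fold change of atprmt5-6 over wild type in AGO1-IP for the 128 miRNAs tested, 1 point each, grouped by the role of their targets, with the median of each list as a bar. The silencing machinery list runs from -0.31 to -0.21, and the nutrient and stress list has the widest range of the conserved lists, from -1.505 to 1.55.

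In the nutrient and stress list the miR395 guides, which act on transcripts of sulfate assimilation, were above wild type in both mutant libraries at all 6 loci. The summed reads of the miR395a sequence were at 6.42 and 4.87 RPM in wild type and 14.7 and 20.01 RPM in atprmt5-6 (log2 fold change 1.46, SE 0.45, limma adjusted p = 0.0918). Those of the miR395b sequence were at 5.97 and 5.13 RPM in wild type and 16.2 and 27.1 RPM in atprmt5-6 (1.75, SE 0.63, limma adjusted p = 0.154). All 6 loci had an unadjusted p under 0.05 and none passed after adjustment, with fold changes from 1.09 to 1.55. They share 2 sequences and their reads were divided among loci, so they do not count as 6 separate observations.

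Copper guides differed more between the atprmt5-6 replicates than between genotypes. miR398b-3p, which targets copper/zinc superoxide dismutase transcripts, was at 1812 and 1273 RPM in wild type and at 3215 RPM in atprmt5-6 replicate 1 and 422 RPM in replicate 3. miR408-3p, a guide of laccase and plantacyanin transcripts, was at 216 and 120 RPM in wild type and 145 and 21.3 RPM in atprmt5-6. For both, replicate 3 of the mutant was the lowest of the 4 libraries. miR397b, a guide of laccase transcripts, had a log2 difference of -3.40 between replicate 3 and replicate 1 of atprmt5-6, and miR398a-5p, a passenger strand, one of 2.77 the other way. For miR398b-3p, miR408-3p and miR397b, replicate 3 was below replicate 1 in wild type and in atprmt5-2 as well. In atprmt5-2 AGO1-IP they were at 4846 and 1027, 218 and 142, and 60.8 and 22.9 RPM in that order. Without atprmt5-6 replicate 3 the log2 fold change of miR398b-3p was 1.08, and without replicate 1 it was -1.84. The total libraries of the mutant were split alike, with miR398b-3p at 1370 and 148 RPM. The phosphate guides miR399b and miR827 stood at 0.18 and -0.20 with overlapping groups. Of 14 tested members 0 passed, 6 lay above wild type in both mutant libraries, against 18% of all miRNAs tested. All 6 are the miR395 loci, which passed the filter only through the mutants, and the list median was 0.19 with them included.

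**Figure D4:**
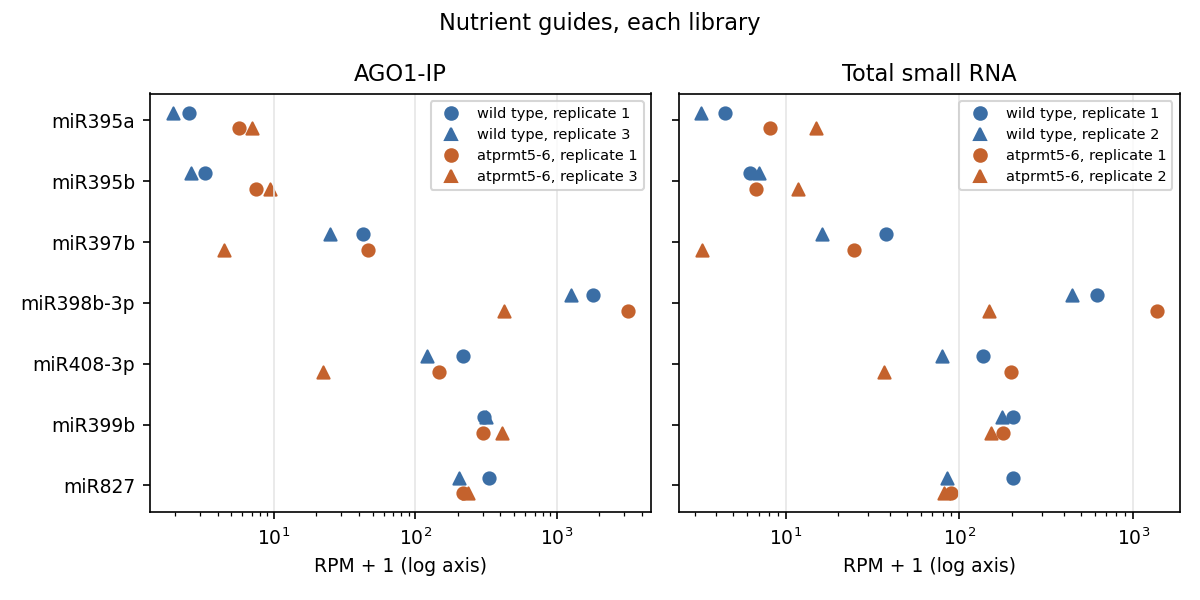
RPM + 1 (log axis) of 7 nutrient guides in AGO1-IP (left) and total small RNA (right), 1 point per library. In AGO1-IP miR395a and miR395b are above wild type in both atprmt5-6 libraries, while miR398b-3p runs from 422 to 3215 RPM within atprmt5-6.

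Guides that act on the silencing machinery lay below wild type by a small amount. miR168a-5p, which targets AGO1 itself, was at 1356 and 1156 RPM in wild type and 1103 and 1067 RPM in atprmt5-6 (log2 fold change -0.21, SE 0.37, limma adjusted p = 0.914). miR162a-3p, which targets DCL1, stood at -0.29 (limma adjusted p = 0.818) and miR403-3p, which targets AGO2, at -0.29 (SE 0.21, limma adjusted p = 0.689). All 5 tested members lay below wild type in both mutant libraries, 0 passed, and the list median was -0.29. They hold 3 sequences, so they do not count as 5 separate observations. Non-overlap below wild type was found for 38.3% of all miRNAs tested.

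The triggers of secondary siRNAs gave 0 calls. miR390a-5p, which acts through AGO7 on TAS3 and begins with A, was at 134 and 137 RPM in wild-type AGO1-IP and 180 and 170 RPM in atprmt5-6 (log2 fold change 0.37, SE 0.29, limma adjusted p = 0.760). miR161.1, a guide of pentatricopeptide repeat transcripts, was at 4722 and 4248 RPM in wild type and 5602 and 5600 RPM in atprmt5-6 (0.32, SE 0.29, limma adjusted p = 0.770). Both lay above wild type in both mutant libraries without passing. miR400 stood at -0.26. Of the 5 tested members 3 lay above wild type and 1 below it, against 18% and 38.3% of all miRNAs tested, and miR390a-5p and miR390b-5p among the 3 are 1 sequence. miR173-5p, the trigger of TAS1 and TAS2 and a 22 nt guide, had 9 and 10 reads of 21 nt in wild type and 7 and 2 in atprmt5-6. miR472-3p, a 22 nt guide named after its values were seen, had 26 and 40 reads of 21 nt in wild type and 19 and 22 in atprmt5-6, and its passenger strand miR472-5p had 4, 0, 1 and 2 reads in the same order. miR828 had 0 reads of 21 nt in all 4 libraries, and other read lengths were not used here. None of these was tested.

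The remaining lists gave 0 calls, and their counts are read against 18% above and 38.3% below wild type over all miRNAs tested. Of 8 auxin signalling guides (4 sequences), 2 lay below wild type in both mutant libraries and 6 overlapped. miR160a-5p stood at 0.04, a value that turned negative in edgeR at the authors' scale, miR167a-5p at -0.26 and miR393a-5p at 0.14. Of 7 guides of phase change and flowering (3 sequences), 3 lay below wild type and 4 overlapped. Among them miR157a-5p, a guide of SPL transcripts, stood at -0.01 and miR172a, a guide of AP2-like floral regulators, at -0.14, and both turned positive after centring on the median miRNA. miR163, annotated at 24 nt and counted here by its 21 nt reads alone, stood at -0.45 with overlapping groups. Of 20 passenger strands, 3 lay above wild type, 5 below it and 12 overlapped (median -0.13). Passenger strands took 0.0656% ± 0.00498 of the AGO1-bound miRNA reads in wild type and 0.0551% ± 0.00307 in atprmt5-6 (SD, n = 2, exact permutation p = 0.3333, the smallest possible).

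The first base of the guides was a property that the choice of libraries did not use. Guides with a 5′ U made up 99.89% and 99.90% of the AGO1-bound miRNA reads in wild type and 99.89% and 99.91% in atprmt5-6. The groups overlapped (exact permutation p = 0.667). Without the dominant miR165 and miR166 guides the means were 99.5% ± 0.0502 and 99.5% ± 0.0896 (SD, n = 2), a difference of -0.0345 percentage points. By number of miRNAs, the 89 tested ones with a 5′ U had a median log2 fold change of -0.20, the 18 with A -0.34, the 8 with G 0.09 and the 13 with C 1.09. Of the 13 with C, 6 were the miR395 loci, admitted by the filter only through the mutants, and the other 7, a set formed after the values were seen, had a median of -0.18.

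The AGO1-bound differences were set beside those in total small RNA, which came from a fraction of the same kind of extract and passed through the same fit. In total small RNA 5 of 128 miRNAs were higher in atprmt5-6 (3.91%) and 21 lower (16.4%), with a median log2 fold change of -0.67 against -0.14 in AGO1-IP. miR843 also rose in total small RNA, from 1.75 and 3.79 RPM to 125 and 67.4 RPM (log2 fold change 4.68), and the difference between fractions was -0.10 (SE 1.01). miR858b and miR858a fell there by 1.72 and 1.63 on the log2 scale, and miR867 stood at -1.504. The AGO1-bound value less the total one was 0.38 for miR858b, 0.37 for miR858a and 0.13 for miR867.

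For miR825 and miR1886.1 the genotypes overlapped in total small RNA. In that fraction miR825 was at 22.8 and 17.5 RPM in wild type and 24.3 and 17.8 RPM in atprmt5-6 (log2 fold change 0.06), and its difference between fractions was 1.14 (SE 0.39, limma adjusted p = 0.192). miR1886.1 was at 19.3 and 13.7 RPM in wild type and 24.3 and 15.5 RPM in atprmt5-6 (0.25), with a difference between fractions of 1.26 (SE 0.59, limma adjusted p = 0.389). Neither difference passed. miR390a-5p had differences of opposite sign in the fractions, with 1971 and 1601 RPM in wild-type total small RNA and 1199 and 754 RPM in that of atprmt5-6 (-0.90), and its difference between fractions was 1.27 (SE 0.41, limma adjusted p = 0.192).

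Over all 128 miRNAs the difference between fractions was called as higher for 0 (0%) and as lower for 1 (0.781%), and 13 (10.2%) and 3 (2.34%) had an unadjusted p under 0.05. It was positive for 103 miRNAs, with a median of 0.46. Neither value measures loading over the whole pool. miR165a-5p and miR166b-5p, for example, had no read in the 4 AGO1-IP libraries. Their positive differences come from their fall in total small RNA alone. For other miRNAs with few AGO1-IP reads the pseudocount of 1 RPM shrinks the AGO1-IP fold change. The median also carries the lower median fold change of total small RNA. A general rise in loading was not tested. The miRNA called as lower was miR5637 (difference -2.39, SE 0.45, limma adjusted p = 0.0420). It had 0 reads in both wild-type total libraries and 15.03 and 12.4 RPM in those of atprmt5-6. It passed the filter only through the mutants. Since wild type was at 0 in total small RNA, the fitted size is no bound and depends on the pseudocount of 1 RPM, and edgeR and DESeq2 called 0 miRNAs in either direction. The call was also lost with a filter of 1 RPM (limma adjusted p = 0.0913) or none (0.206), and without any 1 of the 4 AGO1-IP libraries, at values of -2.66 to -2.12.

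**Figure D5:**
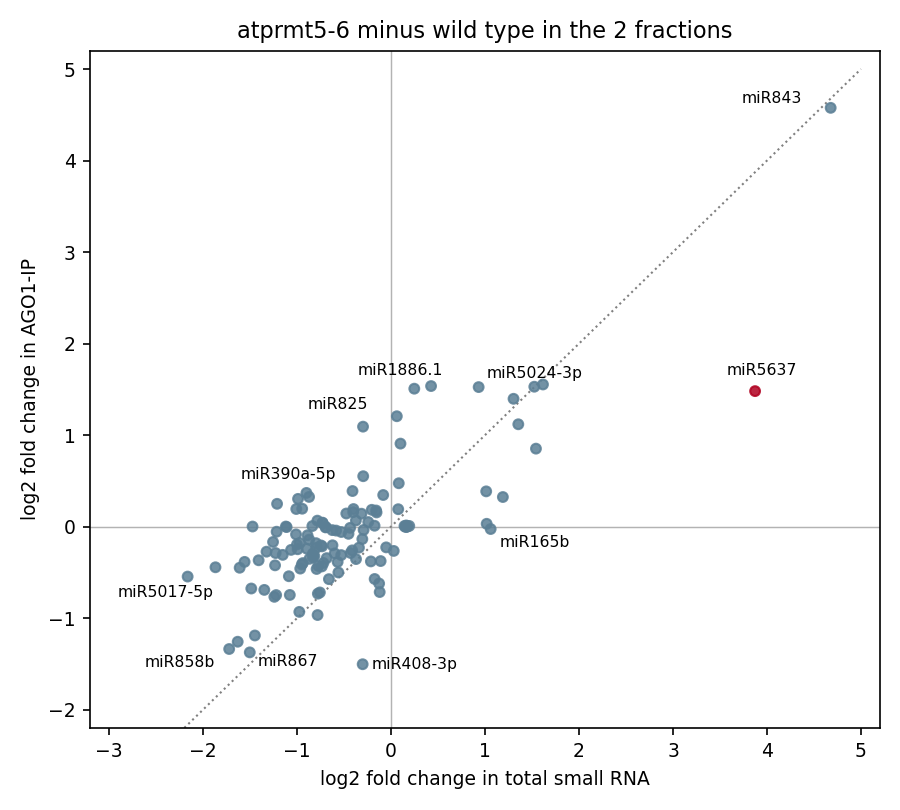
Log2 fold change of atprmt5-6 over wild type in total small RNA against that in AGO1-IP for the 128 miRNAs tested, with the line of equal change. miR843 lies near the line at 4.68 and 4.58, miR5637 off it at 3.87 and 1.48, and miR825 at 0.06 and 1.21.

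Below the filter were 300 miRNAs, of which 154 had no read in the 4 AGO1-IP libraries, 109 had reads in both genotypes, 14 in atprmt5-6 alone and 23 in wild type alone. The last 2 sets held few reads. miR835-3p had 0 reads in wild type and 4 in atprmt5-6, 1.30-fold higher when wild type is set to 3 reads over both libraries. miR8172 and miR870-5p had 4 reads each in wild type and 0 in atprmt5-6, 1.36-fold lower when atprmt5-6 is set to 3 reads likewise. These ratios take the 4 reads as exact, and these miRNAs were picked for having 0 reads in 1 genotype, so the ratios are no bound. Among those with reads in both genotypes, and picked after their values were seen, miR829-3p.2 had 75 and 86 reads in wild type and 20 and 21 in atprmt5-6. miR841a-5p had 95 and 84 reads in wild type and 49 and 32 in atprmt5-6. miR397a, a set guide, had 39 and 33 reads in wild type and 33 and 1 in atprmt5-6, the low one in replicate 3, where miR397b was low as well. miR156a-5p, a 20 nt guide of SPL transcripts, had 0 reads of 21 nt in each library.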

How the data were processed

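The authors had deposited RPM per annotated miRNA, in a table for each library and read length of 21, 22, 23 or 24 nt, and the 21 nt tables were used here. Within a library every value was a whole multiple of 1 read (100% of values, within 0.01 reads), so read counts were recovered; the denominator is taken as the library's 21 nt reads. The submitters' processing notes name the build TAIR10 and the tools Bowtie2, SAMtools 1.9 and Trimmomatic 0.36, without settings or order. Missing values were taken as 0. Names matched RefSeq TAIR10.1 for 428 of 428 miRNAs.

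The test was limma 3.58.1 (R 4.3.3, intensity trend) on log2(RPM + 1), which understates the change of low miRNAs, with a filter of 5 RPM on the mean of 12 libraries in 6 groups (6 residual degrees of freedom), with Benjamini-Hochberg adjusted p under 0.05 over all 128. It treats AGO1-IP and total libraries as independent. The difference between fractions is the AGO1-IP fold change minus the total one. Shares per library got an exact two-sided permutation test of 2 libraries against 2. Alternatives were edgeR 4.0.16 and DESeq2 1.42.0 on recovered counts, other pseudocounts, filters and scalings, a replicate block, summed sequences and leaving out libraries. Scripts were tested on simulated data. Floors of 3 reads cover counting error only. The replicates are biological duplicates per the design.

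Named miRNAs were those called by limma or a count test, the 8 sequences per direction with the largest changes at an unadjusted p under 0.05, the 6 most abundant, a set of guides, and rare miRNAs read in 1 genotype. Members and lists were chosen with earlier results of these data known. Tables of other read lengths were not used here.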

Additional observations from a re-analysis of the deposited data

Results flagged for a closer look

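miR5637 differed between the fractions in its response to the mutation, which is why it is listed here. Its log2 fold change in AGO1-IP less that in total small RNA was -2.393 (SE 0.45, limma adjusted p = 0.0420). In AGO1-IP it had 12 and 7 reads in wild type and 49 and 32 in atprmt5-6, and in total small RNA it had 0 reads in both wild-type libraries. Both mutant libraries lay above both wild-type libraries in each fraction, and it passed the filter on low values only through the mutants. The fitted size is no bound: it was -5.10 with a pseudocount of 0.1 RPM, -1.18 with 5 RPM (limma adjusted p = 0.0753) and -4.05 scaled to annotated miRNA reads. The call was lost with a filter of 1 RPM (limma adjusted p = 0.0913) or none (0.206), by edgeR and DESeq2, and without any 1 of the 4 AGO1-IP libraries.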

How the results depend on the processing

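Counts of higher and lower AGO1-bound miRNAs (1 and 0) became 0 and 0 in the fit of the 4 libraries alone and with no filter, 2 and 1 with a filter of 20 RPM or with the filter of 5 RPM over the AGO1-IP libraries, 2 and 0 scaled to miRNA reads, 5 and 0 centred on the median miRNA or by edgeR with TMM, 4 and 2 by edgeR at the authors' scale, 3 and 2 by DESeq2, and 3 and 1 with identical sequences summed. Leaving out each library in turn gave 0 to 1 higher and 0 lower. Higher and lower differences between fractions (0 and 1) became 1 and 0 with a pseudocount of 5 RPM, 4 and 3 scaled to miRNA reads, 0 and 2 after centring, and 0 and 0 with filters of 1 RPM, 20 RPM, 5 RPM over AGO1-IP or none, by edgeR at either scale and by DESeq2; without each library in turn they were 0 and 0. The cause of these shifts was not tested, except that filters change the number tested and left-out libraries the number of samples. miR5637 did not pass the filters of 20 RPM or of 5 RPM over AGO1-IP, so its difference between fractions was not tested there. Scaling moved the median fold change from -0.14 to 0.02 after centring, 0.00 by DESeq2 and -0.04 with TMM.

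The replicate numbers of AGO1-IP, 1 and 3, are shared by the genotypes without a stated batch. Differences between replicates correlated across the 128 miRNAs at 0.35 between wild type and atprmt5-6 and 0.64 between the mutants. With a replicate block in the 6 AGO1-IP libraries, 10 were higher (miR843, miR825, miR1886.1, miR5024-3p, miR5637 and 5 miR395 loci) and 5 lower (miR858a, miR858b, miR867, miR8183 and miR396b-5p), and 1 and 1 for the difference between fractions; with the block over all 12 libraries, added after seeing the data, 5 were higher and 2 lower.

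Of 42 named miRNAs, 30 kept their direction in all alternatives run and 12 did not. Centring gave miR157a-5p 0.15, miR159a 0.12, miR159b-3p 0.14, miR166a-3p 0.15 and miR172a 0.014. Scaling to miRNA reads gave miR157a-5p 0.0297, miR159a 0.00221, miR159b-3p 0.0247 and miR166a-3p 0.0355. TMM gave miR157a-5p 0.0851, miR159a 0.0651, miR159b-3p 0.0838, miR166a-3p 0.0931 and miR398b-3p 0.33. DESeq2 gave miR157a-5p 0.13, miR159a 0.10, miR159b-3p 0.12, miR166a-3p 0.14, miR172a 0.00409 and miR398b-3p 0.44. edgeR at the authors' scale gave miR160a-5p -0.0625 and miR398b-3p 0.24, and summed sequences gave miR166a-3p 0.00274. Without each library in turn, the ranges were -0.10 to 0.0856 for miR157a-5p, -0.17 to 0.0931 for miR159a, -0.0897 to 0.0606 for miR159b-3p, -0.53 to 0.62 for miR160a-5p, -0.96 to 0.0609 for miR163, -0.0335 to 0.0934 for miR165a-3p, -0.0274 to 0.0199 for miR166a-3p, -0.21 to 0.28 for miR319a, -1.84 to 1.08 for miR398b-3p, -0.0485 to 0.41 for miR399b and -0.56 to 0.15 for miR827. The 5′ U share difference of 0.00443 percentage points ran from -0.00448 to 0.0133, and was -0.0345 without miR165 and miR166.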

Other observations

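Among miRNAs outside the comparisons, miR398a-3p, with too few reads to be tested, had 11 and 11 reads in wild-type AGO1-IP and 36 and 105 reads in that of atprmt5-6. Its seed is that of miR398b-3p, which was lowest in the mutant library where miR398a-3p was highest. Its own passenger, miR398a-5p, was also highest there, at 6.67 RPM against 0.122 to 0.896 RPM in the other AGO1-IP libraries of the comparison. These miRNAs were picked after their values were seen.

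miR5017-5p was nearly absent from AGO1-IP in relation to total small RNA in both genotypes, with 1.64 and 1.05 RPM against 215 and 148 RPM in wild type, and 0.735 and 0.465 RPM against 35.1 and 43.4 RPM in atprmt5-6. The difference between fractions in its response to the mutation was 1.62 (limma adjusted p = 0.173). Its AGO1-IP values are 11 and 8 reads in wild type and 6 and 3 in atprmt5-6, so the fitted size depends on the pseudocount of 1 RPM. With a pseudocount of 5 RPM it was 1.88 (limma adjusted p = 0.0257). That pseudocount exceeds every AGO1-IP value of miR5017-5p, from 0.465 to 1.64 RPM. The difference at that setting therefore mostly carries the fall in total small RNA and says little about AGO1-IP.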
